A study of Danio rerio with 19 samples.

Results

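The genes described here make black melanin pigment in zebrafish melanophores, the dark pigment cells of the skin. They were followed as 10 gene names: pmela, pmelb, tyrp1a, tyrp1b, tyr, dct, oca2, slc24a5, slc45a2 and mitfa. Each name was matched to the gene IDs of the count tables without regard to case. Where a name was absent, its final letter was dropped and every ID with that symbol was taken. In this way 7 names matched directly and 3 after the letter was dropped, giving 11 of the 32020 gene IDs. The names were picked because most of them were high in homozygous scn1lab mutant heads when set against wild type, so that contrast is described below with no p-value for the members, and nothing is read from its counts of calls. Symbols are spelled as in the gene name table, in which some zebrafish genes carry capitals.

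RNA was sequenced from larval zebrafish heads without the eyes, each library from 1 head, in 2 mutant lines of genes linked to autism. The scn1lab line came from incrosses of fish carrying the scn1labΔ44/+ allele. It has 3 libraries of homozygotes (HOM), 3 of heterozygotes (HET) and 3 of wild types (WT). The dyrk1a line came from incrosses of fish carrying dyrk1aaΔ77/+ together with dyrk1abΔ8/+, and has 4 HOM, 3 HET and 3 WT libraries. Larvae were matched as siblings or cousins, and neither a treatment nor an age beyond larval is given. Nothing says whether both dyrk1a paralogs were homozygous in each HOM head. Each library is a different head, and p-values here measure the spread between such heads. In RNA from whole heads, fewer cells of a type and less RNA per cell cannot be told apart.

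Melanin is made inside melanosomes, organelles of the pigment cell. Tyrosinase starts the synthesis from tyrosine, dopachrome tautomerase and tyrosinase-related protein 1 act on later intermediates, and the amyloid-forming protein of the pmel genes builds the fibrils on which melanin is laid down. Membrane transporters set the ionic conditions and substrates inside the melanosome, and the transcription factor encoded by mitfa is required for melanophores to form in zebrafish. The same enzymes work in the retinal pigment epithelium of the eye, so remnants of an incompletely removed eye also carry their transcripts.

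Depth ran from 15.1 to 29.9 M counts per library. The labels name the tissue as whole brain, whereas the protocol describes heads. All 11 neuron marker IDs passed the filter on low counts in both lines, and neuron markers took 0.05003% to 0.107% of counts in scn1lab HOM, 0.0364% to 0.148% in scn1lab HET and 0.248% to 0.341% in scn1lab WT libraries. Skin markers took 1.76% to 6.71% of counts across all libraries, so the heads held skin beside brain. Digestive organ markers reached 10.3% of counts in scn1lab HOM1 and 13.6% in HOM3, but 0.0393% in HOM2. They also reached 9.20% in scn1lab HET2 and 4.78% in dyrk1a HET4, while the remaining libraries held 1.12% or less. Photoreceptor and pineal markers reached 0.751% in scn1lab WT2 and 0.571% in WT3, against 0.00376% in WT1. The targeted gene scn1lab averaged 12.8 ± 5.54 CPM (counts scaled to a fixed library total) in its HOM libraries and 17.0 ± 1.49 CPM in WT libraries (SD, n = 3 each). Its log2 change was -0.41 (SE 0.46, adjusted p = 0.666, edgeR). The DYRK1A gene ENSDARG00000023814 averaged 46.9 ± 9.16 CPM in dyrk1a HOM (SD, n = 4) and 36.8 ± 1.52 CPM in dyrk1a WT libraries (SD, n = 3). The other DYRK1A gene, ENSDARG00000063570, averaged 17.0 ± 7.82 CPM in dyrk1a HOM and 12.5 ± 4.65 CPM in dyrk1a WT libraries. Since a mutant allele can leave its transcript level as it was, the genotypes are as labelled and were not checked by these values.

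In the scn1lab line, 8 of the 11 pigment IDs had a higher level in every HOM head than in any other library of the series. These heads chose the genes, so nothing is read from this count. The share of all genes meeting this rule was not computed. By looser rules, which every gene above all other libraries also meets, 18.2% of all genes had every scn1lab HOM library above WT and 4.96% above HET. The fibril protein gene pmela (ENSDARG00000091298) had 403, 324 and 304 CPM in the scn1lab HOM libraries, 70.9, 52.7 and 48.0 CPM in the HET libraries and 47.3, 54.6 and 79.3 CPM in the WT libraries. All 3 HOM libraries were high, and the HET and WT libraries overlapped. Here CPM is scaled by TMM factors (trimmed mean of M-values), so levels compare 1 gene between libraries and not 1 gene with another. The log2 change of pmela in HOM over WT was 2.51 (SE 0.29).

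The enzyme genes had the same order. TYR (ENSDARG00000039077), which encodes tyrosinase, the enzyme that begins melanin synthesis, had 12.7, 11.4 and 3.90 CPM in scn1lab HOM, 2.49, 0.304 and 0 CPM in the HET heads and 1.26, 0.473 and 1.64 CPM in WT libraries. HOM3 was the lowest of the HOM libraries for TYR and still lay above every HET and WT library. The log2 change of TYR in HOM over WT was 3.04 (SE 1.16). DCT (ENSDARG00000006008), which encodes dopachrome tautomerase, had 54.1, 39.5 and 40.8 CPM in the HOM heads, 5.42, 9.25 and 12.5 CPM in the HET heads and 3.98, 11.6 and 29.2 CPM in WT libraries. The DCT level of WT3 was the highest outside the HOM group. The log2 change of DCT in HOM over WT was 1.58 (SE 0.61).

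Both TYRP1 genes, which encode tyrosinase-related protein 1, were high in the HOM heads. TYRP1 ENSDARG00000056151 had 1348, 891 and 880 CPM in scn1lab HOM, 290, 198 and 72.6 CPM in the HET heads and 178, 135 and 149 CPM in WT libraries. The HET libraries spread more widely than the WT libraries and lay on both sides of them. TYRP1 ENSDARG00000029204 had 56.9, 59.5 and 50.9 CPM in the HOM heads, 18.1, 9.19 and 6.62 CPM in the HET heads and 17.1, 10.96 and 5.77 CPM in WT libraries. Its HOM libraries lay close together, and its HET and WT libraries covered almost the same range. The log2 changes in HOM over WT were 2.76 (SE 0.48) for ENSDARG00000056151 and 2.31 (SE 0.47) for ENSDARG00000029204. Which ID is tyrp1a and which is tyrp1b was not assigned, and reads shared by such paralogs may be split between them.

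Transporter genes of the melanosome followed. OCA2 (ENSDARG00000061303), a melanosomal membrane protein whose human counterpart is mutated in oculocutaneous albinism, had 12.9, 8.87 and 7.28 CPM in scn1lab HOM, 0.326, 1.52 and 0 CPM in the HET heads and 0, 0.255 and 0.820 CPM in WT libraries. SLC24A5 (ENSDARG00000024771), the cation exchanger altered in the zebrafish golden mutant, had 6.71, 6.90 and 10.5 CPM in the HOM heads, 3.55, 0.670 and 1.94 CPM in the HET heads and 1.18, 1.27 and 1.84 CPM in WT libraries. SLC45A2 (ENSDARG00000002593), the transporter altered in the zebrafish albino mutant, had 35.8, 30.03 and 27.3 CPM in the HOM heads, 16.6, 13.9 and 26.1 CPM in the HET heads and 12.0, 16.5 and 17.6 CPM in WT libraries. Every HOM library lay above every HET and WT library for all 3 transporters, although HET3 came close to HOM3 for SLC45A2. The log2 changes in HOM over WT were 4.72 (SE 1.40) for OCA2, 2.49 (SE 0.62) for SLC24A5 and 1.02 (SE 0.30) for SLC45A2. SLC45A2 had the smallest change among the 8 high IDs. OCA2 rests on few WT counts, with 0, 7 and 25 in the 3 libraries.

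The remaining 3 IDs did not share this pattern. The second fibril gene, pmelb (ENSDARG00000033760), had 0 counts in all 3 scn1lab HOM libraries, 0, 0.548 and 3.71 CPM in the HET heads and 0, 3.60 and 5.93 CPM in WT libraries. Against a floor of 3 counts per library, pmelb was at least 17.7-fold lower in HOM than in WT by the group means. Without WT3 the bound was 10.02-fold. The groups overlapped, because WT1 and HET1 also held 0 counts. The MITF IDs were taken for the name mitfa, a factor that activates pigment genes in melanophores, and both were near the detection limit. Which of them is mitfa was not assigned. MITF ENSDARG00000003732 had 2.01, 0.375 and 0.383 CPM in the HOM heads, 0 CPM in all HET, and 0, 0.401 and 0 CPM in WT libraries. MITF ENSDARG00000037833 had 0 CPM in all HOM, 0.530, 0 and 0 CPM in the HET heads and 0, 0.218 and 0.131 CPM in WT libraries. Neither MITF gene passed the filter on low counts.

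**Figure D1:**
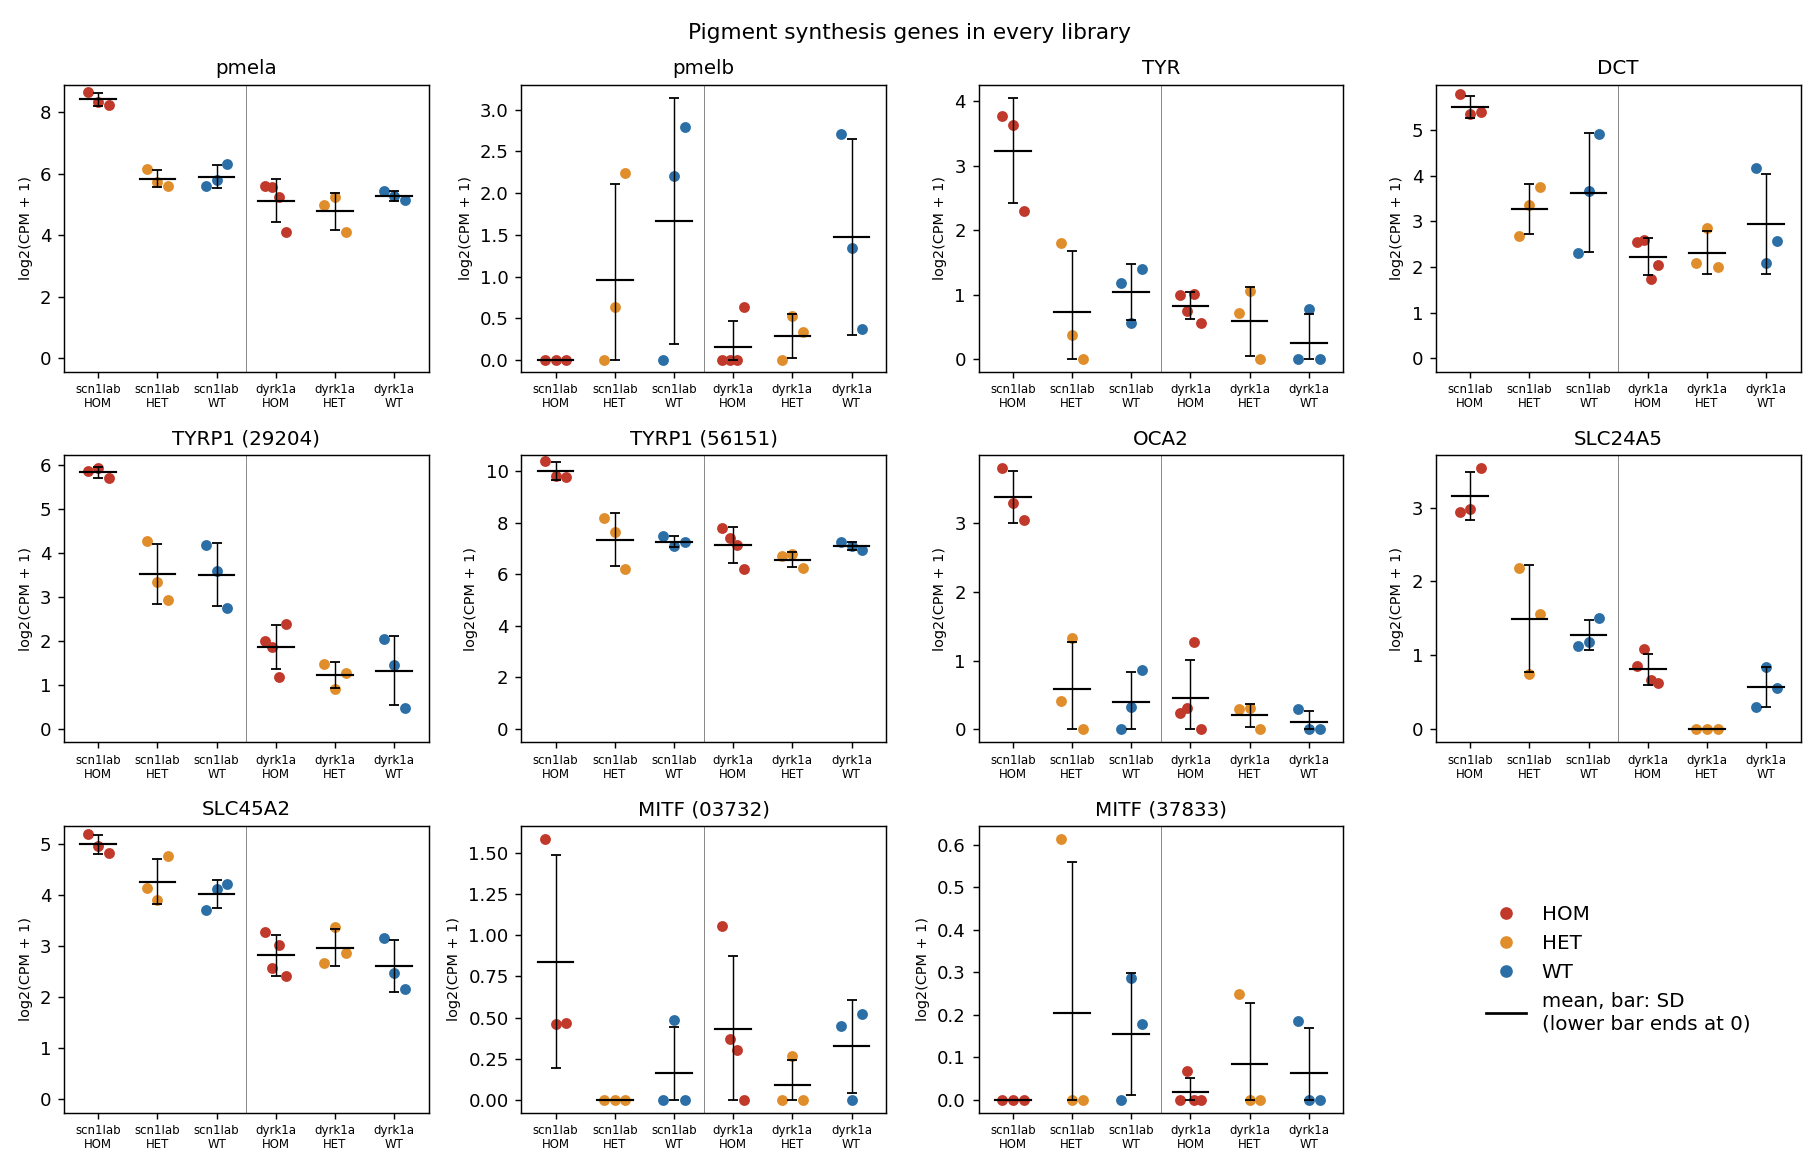
Levels of the 11 pigment IDs as log2(CPM + 1), with 1 point per library, grouped by line and genotype; the black line is the group mean and the bar the SD, and the digits beside TYRP1 and MITF end the gene ID. The scn1lab HOM points, from the heads that chose the genes, lie above all others for 8 IDs, whereas pmelb is at 0 in those heads.

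In counts, 8 of the 9 IDs tested in scn1lab HOM against WT had every HOM library above every WT library, beside 18.2% of all 21466 genes tested. At an adjusted p under 0.05 the edgeR test called 0 of 9, beside 0.00466% of all genes. DESeq2, which fitted all 11 IDs, gave 9 of them an adjusted p and called 5, beside 5.67% of the 26890 genes it fitted. Here and below, shares for DESeq2 are over all genes fitted, also those without an adjusted p. An edgeR fit of HOM and WT libraries alone, in which pmelb did not pass the filter, called 7 of 8, all higher, beside 4.29% of all genes called higher and 5.75% called lower. Without a filter on low counts edgeR called 1 of 11, beside 0.0149%. Nothing is read from these counts, since this contrast chose the genes. The median log2 change was 2.49 over the 9 IDs, also with pmelb at its bound, and 0.09 over all genes tested.

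Heterozygous scn1lab heads did not share the high levels. The edgeR test called 0 of 9 pigment IDs in HET against WT, with 0 of 9 also at an unadjusted p under 0.05, beside 13.2% of all genes. DESeq2 called 0 of the 9 IDs to which it gave an adjusted p, beside 1.11%. The edgeR background at an adjusted p was 0%. For each of the 9, the HET and WT libraries overlapped, while 9.78% of all genes had every HET library above WT and 11% below. pmela averaged 57.2 ± 12.1 CPM in HET heads and 60.4 ± 16.8 CPM in WT heads (SD, n = 3 each), a log2 change of -0.08 (SE 0.28, adjusted p = 0.925, edgeR). TYRP1 ENSDARG00000056151 averaged 187 ± 109 CPM in HET heads and 154 ± 21.8 CPM in WT heads, a log2 change of 0.28 (SE 0.45, adjusted p = 0.808, edgeR). The median log2 change over the 9 IDs was 0.01, beside 0.06 over all genes. These WT libraries also serve the contrast that chose the genes, and a missed threshold does not show that HET and WT are alike.

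HOM heads were also set against HET heads, a comparison that shares the HOM libraries with the contrast that chose the genes and is therefore not independent of it. For 8 of the 9 IDs tested, every HOM library lay above every HET library, beside 4.96% of all genes, and 0 of 9 lay below, beside 2.9%. pmela averaged 344 ± 52.7 CPM in HOM and 57.2 ± 12.1 CPM in HET heads (SD, n = 3 each), a log2 change of 2.59 (SE 0.29, adjusted p = 0.0742, edgeR). TYRP1 ENSDARG00000056151 averaged 1040 ± 267 CPM in HOM and 187 ± 109 CPM in HET heads, a log2 change of 2.48 (SE 0.47, adjusted p = 0.939, edgeR). The edgeR test called 0 of 9, beside 0.00466% of all genes, with 9 of 9 at an unadjusted p under 0.05, beside 4.26%. Of these 9, 8 were higher in HOM and pmelb was lower.

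The call on pmela in HOM against HET depended on the test. The HOM heads that chose the genes are part of this comparison, so nothing is read from its calls. DESeq2 called 3 of 11, beside 0.227% of all genes: pmela at an adjusted p = 3.4e-12, TYRP1 ENSDARG00000056151 at 0.00028 and TYRP1 ENSDARG00000029204 at 0.0034. With all 19 libraries in 1 edgeR fit, pmela alone passed among the 10 IDs tested there, at an adjusted p = 0.0412 beside 0.00445% of all genes. Over every alternative, its adjusted p ran from 3.4e-12 to 1 while its log2 change stayed between 2.45 and 2.77. TYR, DCT, TYRP1 ENSDARG00000029204, OCA2 and SLC24A5 had log2 changes of 3.26, 2.31, 2.30, 3.94 and 1.96 in that order, and SLC45A2 had 0.72, each at an adjusted p of 0.945 by edgeR. MITF ENSDARG00000003732 was at least 4.85-fold higher in HOM than in HET, where it was at 0, and without HOM1 the bound was 1.998-fold. pmelb was at least 7.88-fold lower in HOM than in HET by the group means, and without HET3 the bound was 1.52-fold. Its HOM and HET groups overlapped, since HET1 was also at 0.

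The dyrk1a line gave a different picture. pmela had 47.2, 46.6, 36.7 and 16.4 CPM in dyrk1a HOM, 30.7, 36.8 and 16.1 CPM in the HET heads and 42.8, 38.0 and 34.1 CPM in WT libraries. HOM5 and HET4 were the low libraries, and all 3 groups overlapped. The log2 change of pmela in HOM over WT was -0.05 (SE 0.35, adjusted p = 0.990, edgeR). TYRP1 ENSDARG00000056151 had 219, 170, 140 and 72.1 CPM in the HOM heads, 102, 109 and 74.1 CPM in the HET heads and 150, 134 and 120 CPM in WT libraries. HOM libraries lay on both sides of WT, while every HET library lay below every WT library. Its log2 change was 0.17 (SE 0.30, adjusted p = 0.955) in HOM over WT and -0.49 (SE 0.32, adjusted p = 1.000) in HET over WT by edgeR.

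For the other pigment enzymes and transporters, the HOM and WT libraries of this line overlapped as well. DCT had 4.85, 5.001, 2.34 and 3.10 CPM in dyrk1a HOM, 3.23, 6.24 and 3.03 CPM in the HET heads and 17.0, 3.24 and 4.95 CPM in WT libraries. WT1 alone stood high for DCT, and the log2 change in HOM over WT was -1.12 (SE 0.55, adjusted p = 0.665, edgeR). TYR lay between 0.486 and 1.01 CPM in HOM and between 0 and 1.08 CPM in HET libraries, and was at 0 in 2 of 3 WT libraries with 0.712 CPM in WT2. TYRP1 ENSDARG00000029204 ranged from 1.29 to 4.25 CPM in the HOM heads, 0.877 to 1.80 CPM in HET heads and 0.400 to 3.12 CPM in WT libraries. SLC45A2 ranged from 4.31 to 8.66 CPM in the HOM heads, 5.38 to 9.44 CPM in HET heads and 3.49 to 7.98 CPM in WT libraries. OCA2 reached 1.40 CPM in HOM3 and lay at 0.243 CPM or less elsewhere in the line, and it did not pass the filter there. MITF ENSDARG00000003732 reached 1.08 CPM in HOM1, and MITF ENSDARG00000037833 stayed at 0.188 CPM or less.

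SLC24A5 had its lowest levels of the dyrk1a line in the HET heads. It had 0.808, 1.12, 0.585 and 0.546 CPM in the HOM heads, 0 counts in all 3 HET, and 0.229, 0.791 and 0.473 CPM in WT libraries. HET lay below HOM and WT without overlap, at counts of 9 to 23 in HOM and 5 to 20 in WT libraries. Of all genes, 6.5% had every HET library below WT, and 4.28% had every HOM library above HET. TYRP1 ENSDARG00000056151 also lay below in HET against WT without overlap. SLC24A5 was at least 4.03-fold lower in HET than in WT (unadjusted p = 0.00178, adjusted p = 1.000, edgeR). Without WT2 that bound was 2.84-fold. SLC24A5 was at least 6.18-fold higher in HOM than in HET (adjusted p = 0.460 by edgeR and 0.0048 by DESeq2, which called 0.59% of all genes). Without HOM2 that bound was 5.23-fold. Listed values of 1 and 2 were rarer in the tables than values of 3, at 4109, 4658 and 6316 entries, beside 185537 entries of 0. A listed 0 was therefore not taken as proof that a library held no read of a gene, and the bounds take the counts as listed.

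pmelb also differed between heads of this line. It was at 0 counts in HOM1, HOM2 and HOM3 with 0.546 CPM in HOM5, had 0, 0.438 and 0.261 CPM in the HET heads and had 5.50, 1.54 and 0.291 CPM in WT libraries. The WT mean rests mainly on WT1, and WT4 lay below HOM5. The log2 change in HOM over WT was -4.20 (SE 1.71, adjusted p = 0.598, edgeR).

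Over the 8 IDs tested in the dyrk1a line, edgeR called 0 of 8 in each of HOM against WT, HET against WT and HOM against HET, beside 0% of all 21025 genes. At an unadjusted p under 0.05 it held 1 of 8 in each: pmelb in HOM against WT beside 7.8% of all genes, SLC24A5 in HET against WT beside 3.33%, and SLC24A5 in HOM against HET beside 6.61%. DESeq2 called 0 of the 7 IDs with an adjusted p in HOM against WT, beside 0.613% of all genes. In HET against WT it called 0 of 11, beside 0.099%. Groups did not overlap for 0 of 8 in HOM against WT, beside 4.06% of all genes above and 3.64% below. They did not overlap for 2 of 8 in HET against WT, both lower, beside 6.5% of all genes below and 5.52% above. They did not overlap for 1 of 8 in HOM against HET, higher, beside 4.28% above and 2.71% below. Median log2 changes were 0.20, -0.47 and 0.42 in these 3 comparisons, also with SLC24A5 at its bound, beside 0.01, 0.01 and -0.02 over all genes.

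**Figure D2:**
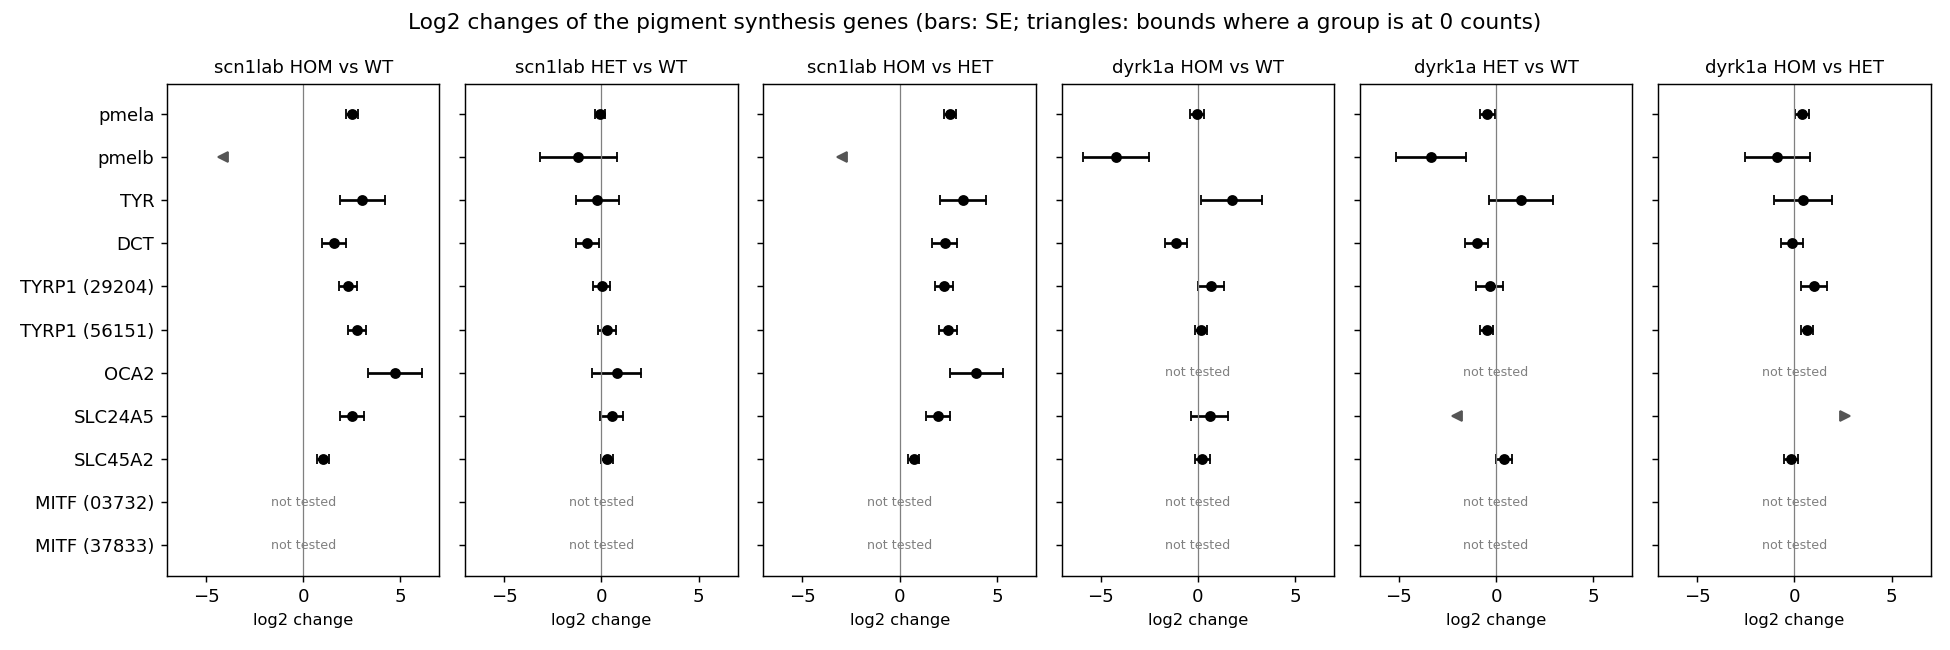
Log2 change of each pigment ID in the 6 comparisons, with bars for the SE and triangles for bounds where 1 group has 0 counts in every library. In the scn1lab line 8 IDs lie right of 0 in both comparisons of HOM, and in the dyrk1a line the IDs lie on both sides of 0.

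The heterozygous effect was tested between the lines, as the HET over WT change in dyrk1a minus that in scn1lab, over 22488 genes. Of the 10 pigment IDs tested, 0 passed at an adjusted p under 0.05 (edgeR), beside 1 of the 22488 genes. At an unadjusted p under 0.05 there was 1 of 10 pigment IDs, SLC24A5 (adjusted p = 0.160, edgeR), whose dyrk1a HET libraries were all at 0. The share of all genes at that unadjusted threshold was not computed, so nothing is read from this count. For pmela the difference was -0.38 (SE 0.49, adjusted p = 0.956, edgeR). The homozygous effect was not tested between the lines, because the scn1lab side of it chose the genes.

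Levels also differed between the WT groups of the lines. SLC45A2 had 7.98, 4.59 and 3.49 CPM in dyrk1a WT and 12.0, 16.5 and 17.6 CPM in scn1lab WT libraries. TYRP1 ENSDARG00000029204 had 3.12, 1.74 and 0.400 CPM in dyrk1a WT and 17.1, 10.96 and 5.77 CPM in scn1lab WT libraries. The dyrk1a libraries lay below the scn1lab libraries without overlap in both genes, and likewise for pmela and SLC24A5, whose values are given above. In all, 4 of the 10 IDs that passed the filter over all libraries lay below without overlap, beside 16.9% of 22488 genes, and 0 lay above, beside 18%. These differences were not tested, and line and any batch of library preparation cannot be told apart.

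Summed over the 11 IDs, pigment genes took 0.149%, 0.142% and 0.0895% of counts in scn1lab HOM, 0.0335%, 0.0225% and 0.0129% in HET, and 0.0282%, 0.0262% and 0.0353% in WT libraries. In the dyrk1a line the share was 0.0301%, 0.0262%, 0.0234% and 0.0103% in HOM, 0.0157%, 0.0176% and 0.0102% in HET, and 0.0260%, 0.0213% and 0.0187% in WT libraries. The 3 scn1lab HOM heads lay above all others, and HET heads overlapped WT heads in the scn1lab line but not in the dyrk1a line. Most of these counts came from TYRP1 ENSDARG00000056151 and pmela, for example 2718 and 818 of 3841 counts in dyrk1a HET2. The summed share therefore largely follows these genes, and its differences between groups were not tested.

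Markers of other tissues differed between scn1lab libraries too. Skin markers took 5.51%, 6.71% and 2.99% of counts in HOM and 4.29%, 2.54% and 4.38% in WT libraries, and these groups overlapped. The 15 skin genes had a median log2 change of 1.01 in HOM over WT, and 0 of 15 passed (edgeR). In HOM, 10 of 15 had every library above WT, beside 18.2% of all genes, and 1 of 15 below, beside 18.3%. The pigment genes had 27.1, 21.2 and 29.99 counts per 1000 skin counts in scn1lab HOM, 5.97, 8.51 and 6.07 in HET, and 6.57, 10.3 and 8.06 in WT libraries. The digestive share of HOM2, at 0.0393%, lay below those of WT1 and WT2, at 0.157% and 0.396%, and close to that of WT3, at 0.0331%. Neuron markers had a median log2 change of -1.49 in HOM over WT, with 10 of 11 below WT in every library, beside 18.3% of all genes, and of -1.17 in HET over WT. Digestive organ, photoreceptor and pineal, retinal pigment epithelium and lens markers had median log2 changes of 8.69, -3.72, -1.31 and 4.07 in that order in HOM over WT, with 0 of 20, 0 of 22, 0 of 9 and 0 of 7 passing (edgeR). Retinal pigment epithelium markers took 0.00613% to 0.00829% of counts in HOM and 0.00786% to 0.0550% in WT libraries. The part of tissue content in the pigment gene levels was not tested.

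**Figure D3:**
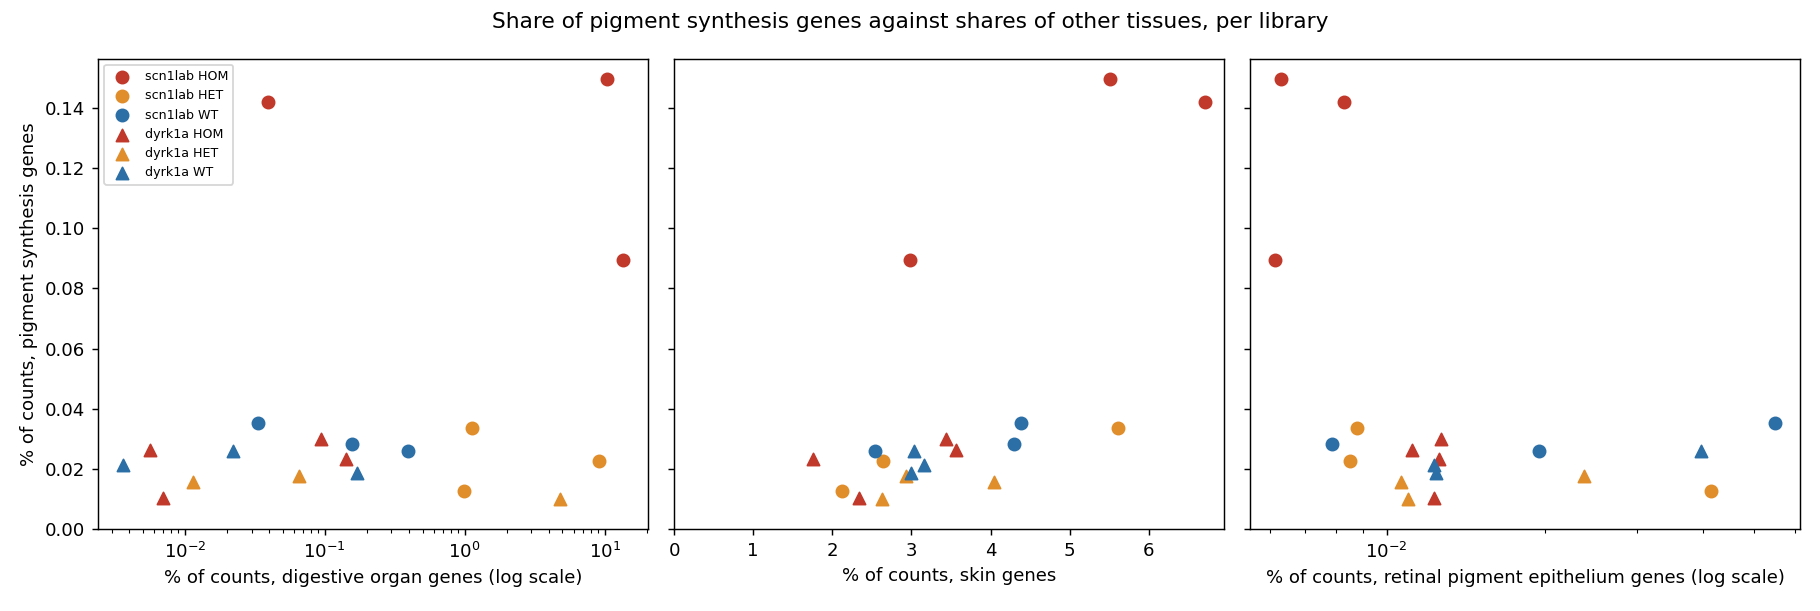
Share of counts taken by the 11 pigment IDs against the shares of digestive organ, skin and retinal pigment epithelium markers, with 1 point per library (circles, scn1lab; triangles, dyrk1a). The scn1lab HOM points stay above 0.08% at digestive shares from 0.0393% to 13.6%, and they lie at the low end of the retinal pigment epithelium axis.

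pmelb varied together with the eye markers of the libraries. Over the 19 libraries, with each line centred on its mean, log2(CPM + 1) of pmelb had a Pearson correlation of 0.89 with the log2 share of retinal pigment epithelium markers and of 0.73 with that of photoreceptor and pineal markers. For pmela these values were -0.34 and -0.24, and for DCT they were 0.18 and 0.19. Both measures in such a correlation come from the same library and share its depth, and the part of eye content in the pmelb differences between genotypes was not tested. pmelb was highest in scn1lab WT3, dyrk1a WT1, scn1lab HET3 and scn1lab WT2, which held 0.0550%, 0.0397%, 0.0414% and 0.0195% of retinal pigment epithelium counts. DCT was also highest among non-HOM heads in scn1lab WT3 and dyrk1a WT1, at 29.2 and 17.0 CPM. Without the libraries in which photoreceptor markers exceed 0.1% of counts, which leaves WT1 as the only scn1lab WT head, the log2 change in scn1lab HOM over WT was 3.35 for DCT, 1.56 for TYRP1 ENSDARG00000029204, 2.403 for TYRP1 ENSDARG00000056151 and 2.72 for pmela. OCA2 was then at 10.54, a value that depends on the prior count and is no measure of size, because WT1 held 0 counts. With single libraries left out, DCT ran from 0.99 without WT1 to 2.38 without WT3, and OCA2 from 4.01 without WT1 to 6.03 without WT3.

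**Figure D4:**
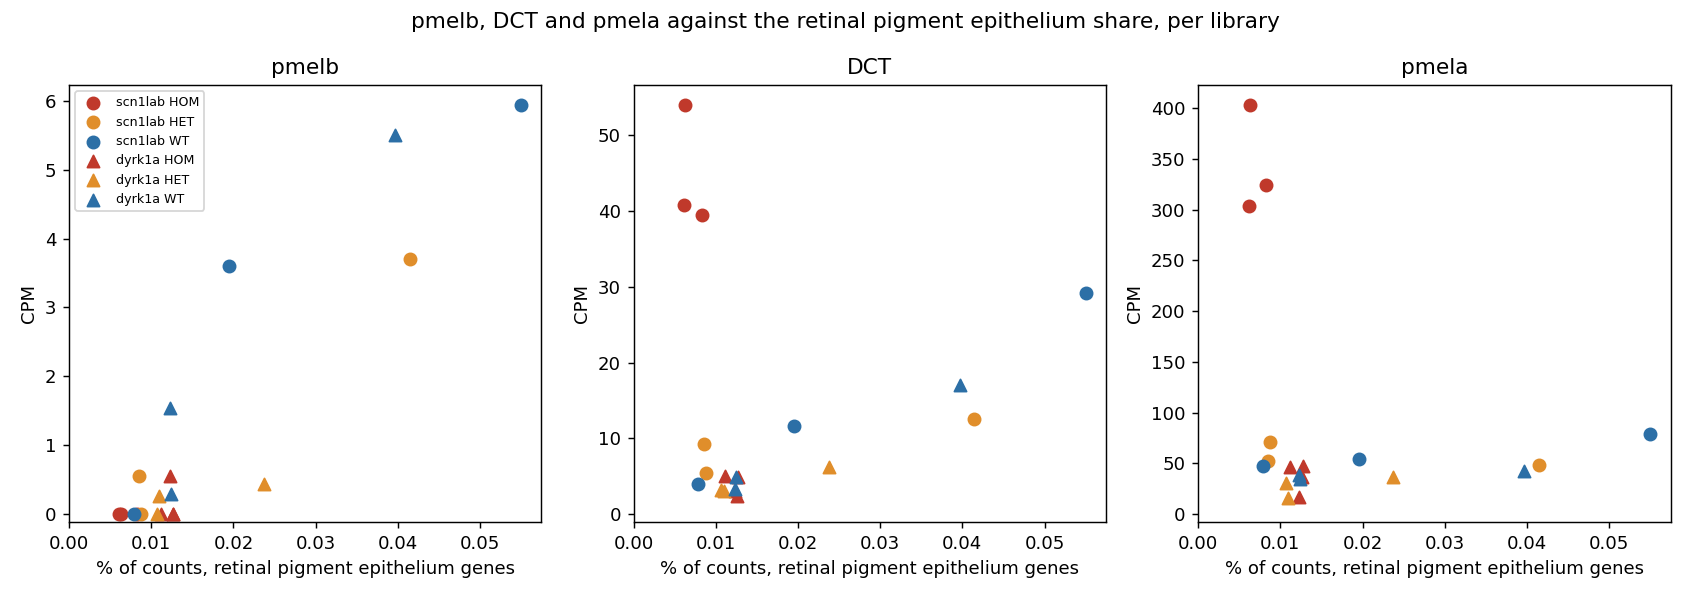
CPM of pmelb, DCT and pmela against the share of counts of retinal pigment epithelium markers, with 1 point per library (circles, scn1lab; triangles, dyrk1a). pmelb is highest at the largest shares, at 5.93 CPM in scn1lab WT3, whereas pmela is high only in the 3 scn1lab HOM libraries.

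The members also differed in how closely each tracked the other members. Over the 19 line-centred libraries, the correlation with the mean of the others was 0.93 for pmela, 0.86 for OCA2, 0.84 for TYRP1 ENSDARG00000056151, 0.79 for SLC24A5, 0.77 for DCT, 0.76 for TYR, 0.71 for TYRP1 ENSDARG00000029204 and 0.68 for SLC45A2. Within the dyrk1a line alone, pmela kept 0.62 and TYRP1 ENSDARG00000056151 kept 0.65, while TYR had 0.03 and OCA2 had 0.16. pmelb had -0.38 over all libraries. These values describe the libraries, which share the HOM heads that chose the genes.

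Other melanophore genes lay on both sides of 0. Of 35 further IDs for melanosome and melanophore genes, 32 were tested in the scn1lab line, and 0 passed in HOM against WT (edgeR). In 6 of 32 every HOM library lay above WT and in 4 of 32 below, beside 18.2% and 18.3% of all genes. Their median log2 change was 0.26. TSPAN10, a tetraspanin of the retinal pigment epithelium and melanocytes, averaged 16.0 ± 2.62 CPM in HOM and 4.26 ± 1.26 CPM in WT heads (SD, n = 3 each), a log2 change of 1.91 (SE 0.36, adjusted p = 0.148, edgeR). HPS1, part of a complex needed for melanosome biogenesis, averaged 18.8 ± 11.1 CPM in HOM and 6.59 ± 0.236 CPM in WT heads, a log2 change of 1.51 (SE 0.45, adjusted p = 0.166, edgeR). TFAP2E, a transcription factor of pigment cells, averaged 7.73 ± 1.37 CPM in HOM and 20.2 ± 4.99 CPM in WT heads, a log2 change of -1.38 (SE 0.37, adjusted p = 0.160, edgeR). In HOM against HET, 0 of 32 passed (edgeR), and TSPAN10 was again the list's smallest p with a log2 change of 2.04 (SE 0.36, adjusted p = 0.919).

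Iridophores, the silvery pigment cells that hold guanine crystals, and xanthophores, the yellow ones that hold pteridines and carotenoids, served as comparison. The 13 iridophore IDs had a median log2 change of 0.01 in scn1lab HOM over WT, with 0 of 13 passing (edgeR), 0 above WT in every library and 2 below. IMPDH1 ENSDARG00000029524, an enzyme of purine synthesis, averaged 51.9 ± 3.84 CPM in HOM and 86.2 ± 17.3 CPM in WT heads (SD, n = 3 each). The 12 xanthophore IDs had a median of 0.24, with 0 of 12 passing (edgeR), 3 above and 3 below. Over all genes tested, 18.2% lay above and 18.3% below. slc2a15b, a transporter needed for larval xanthophore pigmentation in fish, averaged 38.8 ± 5.59 CPM in HOM and 13.1 ± 2.82 CPM in WT heads, whereas PAX7 ENSDARG00000100398, a xanthophore lineage factor also active in brain, averaged 7.84 ± 0.535 CPM in HOM and 22.2 ± 8.25 CPM in WT heads. In dyrk1a HOM over WT, the medians were -0.06 for the further melanophore genes, 0.01 for iridophore and 0.03 for xanthophore genes, and 0 of each passed (edgeR).

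**Figure D5:**
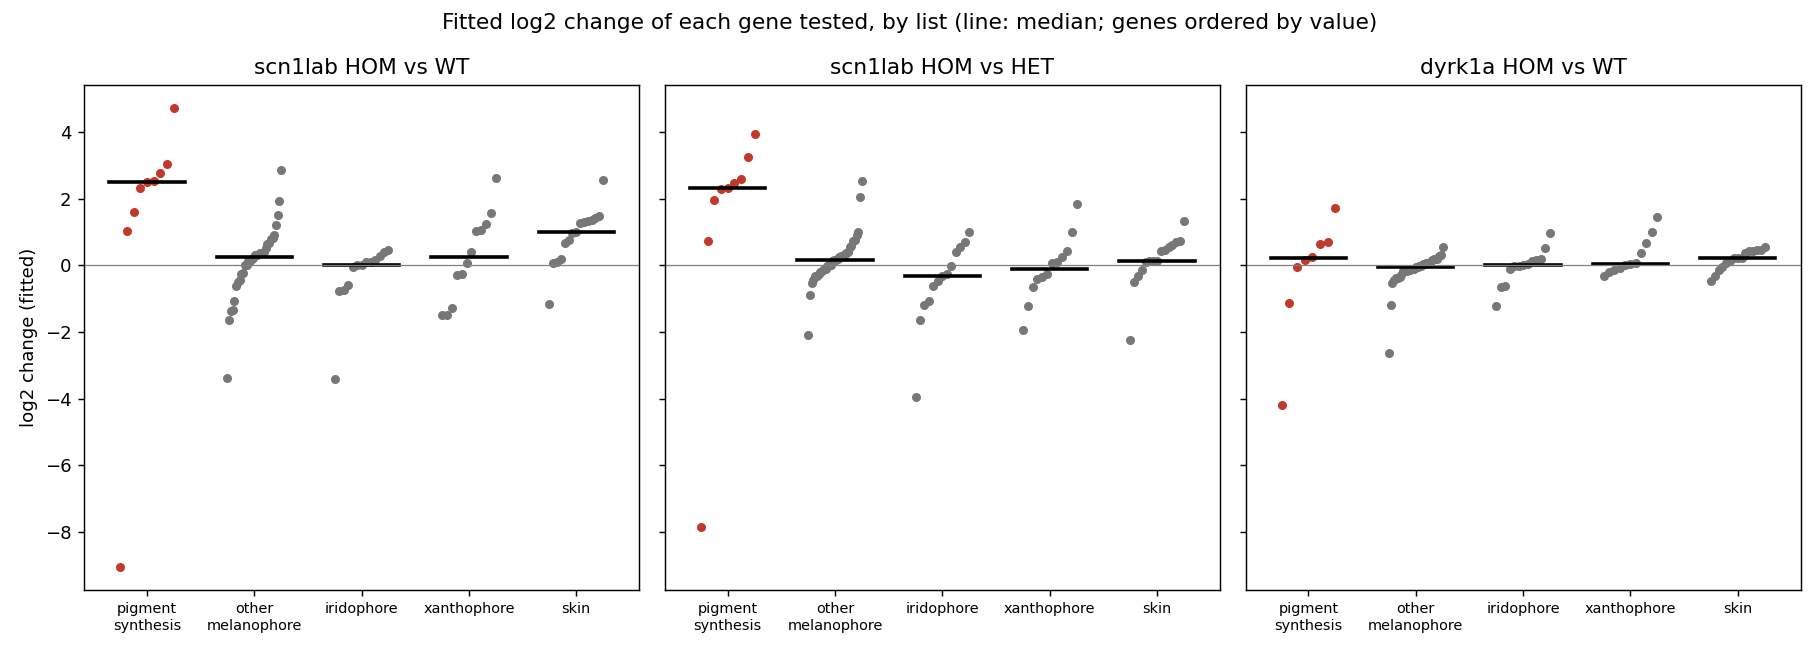
Fitted log2 change of each tested gene of 5 lists in 3 comparisons, with the list median as a black line; values of genes with 0 counts in a whole group, pmelb among them in scn1lab HOM, depend on the prior count and are no measure of size. The median of the pigment synthesis genes is 2.49 in scn1lab HOM over WT and 2.31 in scn1lab HOM over HET. In dyrk1a HOM over WT it is 0.20. The medians of the other lists plotted lie between -0.32 and 1.01. The scn1lab HOM heads chose the pigment genes, so nothing is read from their distance to these lists. Among lists not plotted, medians in scn1lab HOM over WT included 8.69 for digestive organ, 4.07 for lens and -3.72 for photoreceptor and pineal markers.

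The genes most like the pigment genes were found by correlating log2(CPM + 1), centred within each line, with the mean profile of the 8 pigment IDs tested in both lines. These 8 include pmelb and leave out OCA2, which did not pass the filter in the dyrk1a line. The profile was 1.29, 1.09 and 0.94 in the scn1lab HOM heads that chose the genes. Elsewhere it was at most 0.58, in dyrk1a WT1. The ranking therefore rests largely on those HOM heads and is a description only. Among 13801 candidates, TSPAN10 came first with a correlation of 0.93 over the 19 libraries, 0.96 in the 9 scn1lab and 0.63 in the 10 dyrk1a libraries. The next were actc1c (0.84), an actin gene, DHRS11 (0.83), a dehydrogenase gene, il17ra1a (0.83), an interleukin receptor gene, CAD (0.81), an enzyme of pyrimidine synthesis, and ponzr10 (0.80). actc1c averaged 58.3 ± 46.8 CPM in scn1lab HOM, 0.267 ± 0.317 CPM in HET heads and 0.0744 ± 0.0792 CPM in WT libraries (SD, n = 3 each). CAD averaged 53.7 ± 5.21 CPM in scn1lab HOM, 26.5 ± 4.80 CPM in HET heads and 29.6 ± 5.08 CPM in WT libraries, and kept a correlation of 0.71 within the dyrk1a line, where DHRS11 had 0.14 and il17ra1a had 0.12.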

How the data were processed

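Per the labels' protocols, RNA of single larval heads without eyes was extracted with either of 2 kits, not assigned to libraries, and sequenced on an Illumina NovaSeq after low-input library preparation. The deposited tables hold raw counts per gene, whole numbers for 32020 IDs. Per the submitters' processing notes, Trim Galore 0.5.0, HISAT2 2.1.0, StringTie 1.3.3b, DESeq2 1.22.1 and the GRCz11 build were used; the annotation and strand setting are not given in the sources used here. Symbols came from the supplied name table. Sequences and promoter motifs were not analysed here.

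In R 4.3.3, genes passing filterByExpr were scaled by TMM and tested with edgeR 4.0.16 (robust quasi-likelihood F tests, two-sided), 1 fit per line, with Benjamini-Hochberg adjustment over all genes tested and a threshold of 0.05. Dividing the size of a log2 change by the square root of its F gave the SE. CPM levels were scaled by TMM factors over all 19 libraries. The shares of counts of the pigment IDs have 95% Wilson intervals within 0.002 percentage points of the share. No interval was computed for the other marker shares. Intervals and floors cover counting error only. Scripts were tested on simulated data.

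The members and lists were chosen with earlier results of these data known. All member IDs are named; of each other list, up to 3 IDs per comparison with the smallest p and a mean of at least 1 CPM could be named, and the 6 most correlated genes with a mean of at least 5 CPM. Alternatives were DESeq2 1.42.0, DESeq2 size factors, unscaled totals, no filter, other sets of libraries, a replicate block, digestive organ genes removed and each library left out. Leaving out libraries rich in digestive organ (4% or more) or photoreceptor (0.1% or more) counts was chosen after seeing the data. No pair of replicates agreed within sampling noise.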

Additional observations from a re-analysis of the deposited data

Results flagged for a closer look

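In the dyrk1a HOM group, 1 library stood apart from the others for 2 of the 11 sets of 4 libraries checked, by the gap of the extreme library relative to the range of the group. A chance rate of about 1 in 20 does not apply to these 2, because every other library of each set was at 0. The gap then equals the range whatever the value. pmelb had 0.546 CPM in dyrk1a HOM5, from 9 counts, while HOM1, HOM2 and HOM3 had 0. MITF ENSDARG00000037833 had 0.0486 CPM in dyrk1a HOM2, from 1 count, while the other HOM libraries had 0, so this value lies under the floor of 3 counts.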

How the results depend on the processing

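The number of pigment IDs called in scn1lab HOM against WT was 0 of 9, beside 0.00466% of all genes, and moved with the test. It was 5 of the 9 with an adjusted p in DESeq2, beside 5.67%, and 7 of 8 with only the 2 genotypes, beside 10%. With all 19 libraries in 1 fit it was 4 of 10, beside 5.68%, and without a filter 1 of 11, beside 0.0149%. With a library left out it was 0 to 3 (3 without HET1, beside 0.778%, and 2 without HET3, beside 0.0272%). Nothing is read from these counts, since this contrast chose the genes. In scn1lab HOM against HET, DESeq2 called 3 of 11, beside 0.227%, and the fit of all 19 libraries 1 of 10, beside 0.00445%. That comparison shares the HOM heads that chose the genes, so nothing is read from its calls either. In dyrk1a HOM against HET, DESeq2 called 1 of the 10 IDs with an adjusted p, beside 0.59%. The median log2 change there was 0.0029 without HET4, the digestive-rich library, with a range of 0.0029 to 0.69 over libraries left out. The cause of these shifts was not tested. Of 931 recomputed log2 changes, 39 changed sign, 0 of them in scn1lab HOM against WT or HET. In scn1lab HET against WT, TYRP1 ENSDARG00000029204 turned to -0.0147 with DESeq2, to -0.0139 with its size factors and to -0.0475 with only the 2 genotypes. Without digestive-rich libraries, OCA2 turned to -0.96 and TYR to 0.19. Without photoreceptor-rich libraries, TYRP1 ENSDARG00000029204 was -0.45, DCT 0.75, pmela 0.26 and TYR 0.0404. With a library left out, ranges were -1.28 to 0.12 for DCT, -0.92 to 2.11 for OCA2, -0.33 to 0.0616 for pmela, -0.15 to 0.94 for SLC24A5, -0.0117 to 0.47 for SLC45A2, -2.71 to 0.33 for TYR, -0.51 to 0.33 for TYRP1 ENSDARG00000029204 and -0.19 to 0.67 for TYRP1 ENSDARG00000056151. In dyrk1a HET against WT, ranges were -1.41 to 0.0400 for DCT and -0.80 to 0.38 for TYRP1 ENSDARG00000029204, and without photoreceptor-rich libraries this TYRP1 was 0.62 and TYR -0.11. In dyrk1a HOM against WT, pmela was 0.0289 without photoreceptor-rich libraries and ranged from -0.21 to 0.18, and TYRP1 ENSDARG00000056151 from -0.0864 to 0.38. In dyrk1a HOM against HET, DCT was 0.26 and SLC45A2 0.0788 without photoreceptor-rich libraries, and TYR was -0.11 without the digestive-rich one; ranges were -0.31 to 0.26 for DCT, -0.38 to 0.0790 for SLC45A2 and -0.11 to 1.27 for TYR. A replicate block called 0 pigment IDs in every comparison and turned TYRP1 ENSDARG00000029204 to 0.61 in dyrk1a HET against WT. Deviations of same-numbered libraries correlated above 0.1 in 2 of 9 scn1lab and 3 of 6 dyrk1a pairs. The highest same-numbered values were 0.14 in scn1lab and 0.29 in dyrk1a. Different-numbered pairs reached 0.43 in scn1lab (HOM2 with WT3) and 0.29 in dyrk1a (HOM3 with HET4). The main fits did not pair samples by number, and these values do not settle whether the numbers mark a shared batch. Unscaled totals moved 5 of 66 group levels by more than 1 SD, among them pmela in scn1lab HOM at 284 CPM. Counts near the floor limit MITF, pmelb, OCA2 and dyrk1a SLC24A5.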

Other observations

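Some hormone genes that act on fish pigment cells had low means in scn1lab HOM heads, in which the neuron markers were low too. Of the 14 IDs tested for pigment hormones and their receptors, 0 passed in HOM against WT (edgeR). The 3 named next had the smallest p among those with a mean of at least 1 CPM. The melanin-concentrating hormone genes pmchl and PMCH encode a peptide that aggregates melanosomes and pales the skin of fish. pmchl averaged 17.0 ± 2.59 CPM in scn1lab HOM and 155 ± 23.2 CPM in WT heads (SD, n = 3 each), a log2 change of -3.19 (SE 0.77, adjusted p = 0.156, edgeR). PMCH averaged 2.94 ± 1.38 CPM in HOM and 23.0 ± 12.6 CPM in WT heads, a log2 change of -2.97 (SE 0.74, adjusted p = 0.156, edgeR). POMC ENSDARG00000043135, the precursor of melanocyte-stimulating hormone, averaged 8.98 ± 2.54 CPM in HOM and 39.6 ± 20.6 CPM in WT heads, a log2 change of -2.14 (SE 0.90, adjusted p = 0.251, edgeR). For all 3 genes the HOM libraries were below the WT libraries without overlap, as were 5 of the 14 tested, beside 18.3% of all genes. In 1 of the 14 every HOM library lay above WT, beside 18.2% of all genes.

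In the scn1lab HET heads pmchl was uneven, at 468 ± 556 CPM in HET and 155 ± 23.2 CPM in WT heads, and the groups overlapped. In the dyrk1a line pmchl averaged 140 ± 19.7 CPM in HOM (SD, n = 4) and 264 ± 22.3 CPM in WT heads (SD, n = 3), a log2 change of -0.91 (SE 0.38, adjusted p = 0.621, edgeR). The pigment synthesis genes of dyrk1a HOM heads overlapped WT, and any relation between hormone and pigment genes was not tested.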
